A study of Homo sapiens with 4 samples.

Results

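Expression of 5 transcription factor genes that set prostate epithelial identity, FOXA1, HOXB13, GATA2, GRHL2 and TRPS1, was examined in LNCaP cells treated with androgen, with and without the inhibitor CPI-455. The genes were taken by name, as factors known for their roles in the chromatin of prostate cells or in the prostate epithelium, and are 5 of the 60675 genes counted. RNA was sequenced from 4 cultures of LNCaP, an established human prostate cancer line that responds to androgen and derives from a metastasis in a lymph node. All 4 were kept in medium depleted of hormones and received 1 nM R1881, a synthetic androgen, for 72 h. In 2 of them R1881 was given with vehicle (DMSO), and in the other 2 with 50 µM CPI-455 dissolved in DMSO, an inhibitor of the KDM5 demethylases, enzymes that remove methyl groups from lysine 4 of histone H3. No library without androgen was analysed here, so each comparison is of androgen with the inhibitor against androgen alone, in a single cell line at a single dose and time. The replicates are described by the study as biological.

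Most transcription factors bind poorly where DNA is wrapped in nucleosomes. Pioneer factors can bind there and open the chromatin, which lets other factors follow. In prostate luminal cells FOXA1 and GATA2 are known to open enhancers that respond to androgen, and HOXB13 marks sites typical of prostate. GRHL2 is a pioneer factor of epithelial enhancers and maintains genes of cell junctions, and TRPS1 is a GATA-type zinc finger protein known mainly as a repressor.

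RNA for 4 of the 5 factors was lower with CPI-455, by 6.43-fold for FOXA1, 4.02-fold for HOXB13, 3.27-fold for GRHL2 and 2.34-fold for TRPS1. GATA2 differed by 1.32-fold and was not called. A gene was called when its change was at least 2-fold with an FDR below 0.05, the p-value of edgeR's quasi-likelihood test adjusted by Benjamini-Hochberg over all 17600 genes tested. By this rule 21.3% of all tested genes were called lower with CPI-455 and 21.0% were called higher, so a called gene was common in these libraries. Among protein-coding genes 24.4% were called lower. All 5 factors passed the filter on low counts, and 4 were called lower and 0 higher.

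The promoter windows of FOXA1 and GATA2 are shown because these factors, both known to act at androgen-responsive enhancers, had the largest and the smallest change of the 5. The windows are RefSeq sequence of build GRCh38.p14, from 250 bases before to 50 bases after an annotated start, written 5′ to 3′ on the minus strand, on which both genes lie. Capitals mark each match, on either strand, of the GC box letters GGGCGG. The FOXA1 window (chr14:37595200-37595499) lies inside the gene as the deposited annotation draws it. The first GATA2 window (chr3:128493152-128493451) lies at the 5′ end of the gene and the second (chr3:128488481-128488780) within it.
FOXA1 promoter: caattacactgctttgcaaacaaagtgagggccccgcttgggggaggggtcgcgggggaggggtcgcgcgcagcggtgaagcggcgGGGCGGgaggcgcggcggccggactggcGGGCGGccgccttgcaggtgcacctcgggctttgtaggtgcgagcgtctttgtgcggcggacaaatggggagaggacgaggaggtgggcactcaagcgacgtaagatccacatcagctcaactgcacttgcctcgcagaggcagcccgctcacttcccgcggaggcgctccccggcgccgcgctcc
GATA2 promoter 1: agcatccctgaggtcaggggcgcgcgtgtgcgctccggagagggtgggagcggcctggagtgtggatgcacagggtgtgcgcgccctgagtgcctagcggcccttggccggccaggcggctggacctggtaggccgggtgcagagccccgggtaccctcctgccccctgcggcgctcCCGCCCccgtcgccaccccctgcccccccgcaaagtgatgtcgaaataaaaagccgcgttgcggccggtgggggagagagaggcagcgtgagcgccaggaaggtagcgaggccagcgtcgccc
GATA2 promoter 2: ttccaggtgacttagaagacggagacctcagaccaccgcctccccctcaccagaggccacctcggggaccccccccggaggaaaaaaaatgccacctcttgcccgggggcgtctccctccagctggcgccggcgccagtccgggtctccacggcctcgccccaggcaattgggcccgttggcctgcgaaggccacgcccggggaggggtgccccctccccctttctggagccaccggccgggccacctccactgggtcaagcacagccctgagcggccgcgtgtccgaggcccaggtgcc
The FOXA1 window has 69.3% G and C and 34 CG pairs, more pairs than 84.4% of the 35116 promoter windows of the same length. The GATA2 windows have 72.3% and 71.3% G and C with 29 and 22 CG pairs, and the median of all windows is 58.7% with 14 pairs. GC boxes matched at 2 places for FOXA1, at 1 for the first GATA2 window and at 0 for the second, and 45.0% of all windows hold at least 1. The windows of both genes were also searched on both strands for letters of other motifs, with no match. The core promoter letters TATAAA are held by 11.5% of all windows. A forkhead factor motif, searched as TGTTTAC, is held by 3.42%. The letters AGATAA, which GATA factors bind, are held by 10.3%. These letters describe the windows, and no measurement of chromatin or binding was analysed here.

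FOXA1 (ENSG00000129514, chromosome 14 from 37589984 to 37596059) encodes a forkhead pioneer factor of liver, breast and prostate epithelium. The vehicle libraries (replicates 1 and 2) held 1150 and 1198 of its fragments, against 88 and 33 in the CPI-455 libraries. As CPM, counts scaled to a common library size with edgeR's TMM factors, these were 54.3 and 54.7 against 9.87 and 6.53. The groups were far apart, with the lower vehicle library 5.5-fold above the higher CPI-455 library, while the CPI-455 replicates differed from each other by 1.51-fold. Mean expression under vehicle was 54.5 ± 0.289 CPM (SD, n = 2), against 8.2 ± 2.36 CPM (SD, n = 2) under the inhibitor. The log2 fold change, CPI-455 over vehicle as throughout, was -2.69 (standard error 0.21, 95% interval -3.15 to -2.22, FDR = 5.748e-06). Of all tested genes, 3.84% had a lower log2 fold change than FOXA1.

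HOXB13 (ENSG00000159184, chromosome 17 from 48724763 to 48729178) encodes a homeobox factor whose expression in the adult is largely confined to the prostate and lower gut. It had 829 and 782 counts in the vehicle libraries against 75 and 53 under CPI-455, or 39.2, 35.7, 8.41 and 10.5 CPM. Both CPI-455 libraries were low and they differed by 1.25-fold, with a 3.41-fold gap to the nearest vehicle library. The means were 37.4 ± 2.43 CPM (SD, n = 2) and 9.45 ± 1.46 CPM (SD, n = 2), and HOXB13 fell by 2.01 on the log2 scale (standard error 0.20, 95% interval -2.45 to -1.56, FDR = 2.431e-05). A lower log2 fold change was found for 7.85% of tested genes.

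GATA2 (ENSG00000179348, chromosome 3 from 128479427 to 128493185) encodes a zinc finger factor that acts with FOXA1 at enhancers and is also required in blood stem cells. Its vehicle libraries held 864 and 851 counts, and its CPI-455 libraries 289 and 139. The raw counts differ mostly by library depth, and after scaling the 4 libraries held 40.8, 38.9, 32.4 and 27.5 CPM. The groups did not overlap, but the gap between them was 1.2-fold and the CPI-455 replicates alone differed by 1.18-fold. The log2 fold change was -0.40 (standard error 0.16, 95% interval -0.76 to -0.05, FDR = 0.0499), on the FDR threshold and under the 2-fold minimum. An FDR below 0.05 with lower expression, at any fold, was found for 32.8% of tested genes, and 39.8% had a lower log2 fold change than GATA2. The FDR of GATA2 depended on the settings. Among them, it was 0.00952 when only library totals were used for scaling and 0.233 with upper-quartile normalization. By DESeq2 it was 0.132, and with every library thinned to the depth of the shallowest 0.252.

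GRHL2 (ENSG00000083307, chromosome 8 from 101492432 to 101669726) encodes a grainyhead-like factor of epithelia and was the lowest of the 5. Counts of 262 and 310 under vehicle stood against 51 and 9 under CPI-455, or 12.4, 14.2, 5.72 and 1.78 CPM. The CPI-455 replicates differed from each other by 3.21-fold, more than the 2.16-fold gap between the groups, and the 95% Poisson intervals of their CPM, 4.26 to 7.52 and 0.814 to 3.38, did not meet. Such intervals cover counting error only. The log2 fold change was -1.71 (standard error 0.40, 95% interval -2.61 to -0.81, FDR = 0.00464). Its size rested on which CPI-455 library was used, since it was -2.91 without replicate 1 and -1.26 without replicate 2. GRHL2 was called in both of these fits, but not when tested against a 2-fold change with edgeR's glmTreat (FDR = 0.0603).

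TRPS1 (ENSG00000104447, chromosome 8 from 115408496 to 115809673) has the longest exonic sequence of the 5, 11072 bases, and the lowest exonic G and C content, 40.8%, where the medians of tested genes were 4292 bases and 48.5%. The vehicle libraries held 1193 and 1422 counts of it and the CPI-455 libraries 242 and 124, or 56.3, 65.0, 27.1 and 24.5 CPM. The replicates of each group lay close together, the CPI-455 pair within 1.11-fold, and the groups were 2.08-fold apart. TRPS1 fell by 1.22 on the log2 scale (standard error 0.16, 95% interval -1.58 to -0.87, FDR = 1.186e-04), and 19.2% of tested genes had a lower log2 fold change. The call depended on the processing. With a smooth trend of counts on exon length and G and C content removed from each library the log2 fold change was -0.72 (FDR = 0.00145), under the 2-fold minimum, and with glmTreat the FDR was 0.0906.

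**Figure D1:**
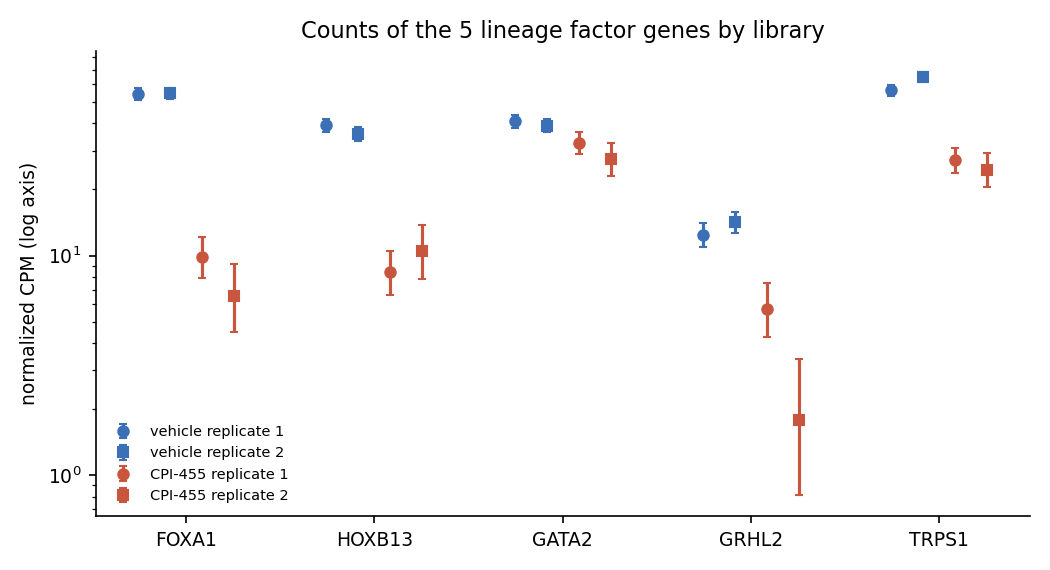
Normalized CPM on a log axis of the 5 factor genes in each vehicle (blue) and CPI-455 (red) library, circles for replicate 1 and squares for replicate 2, with 95% Poisson intervals as bars. Both CPI-455 libraries lie below both vehicle libraries for all 5 genes, with a 5.5-fold gap for FOXA1 and a 1.2-fold gap for GATA2.

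In CPM, both CPI-455 libraries were below both vehicle libraries for 5 of the 5 factors, an arrangement found for 42.8% of all tested genes. The median log2 fold change of the 5 was -1.71, and that of all tested genes -0.04. Fold changes compare a gene with the rest of its library, and with another scaling all genes shifted together, by 0.17 with upper-quartile normalization and by -0.19 with library totals. Relative to the median of all genes the 5 log2 fold changes were -2.65 for FOXA1, -1.97 for HOXB13, -0.36 for GATA2, -1.67 for GRHL2 and -1.18 for TRPS1, and under both scalings these differences were the same. Bulk RNA cannot tell fewer cells that express a factor from less of its RNA per cell.

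**Figure D2:**
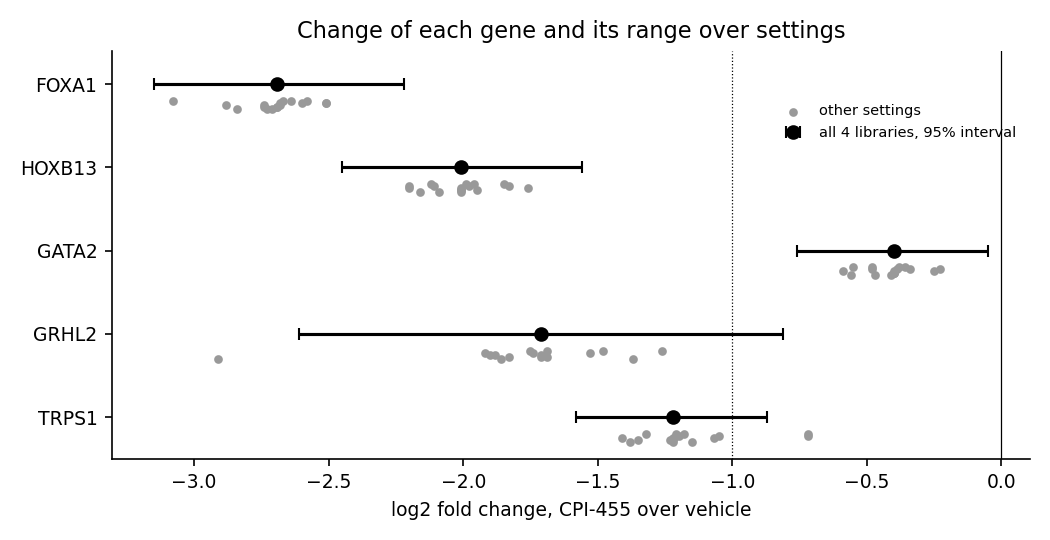
Log2 fold change, CPI-455 over vehicle, of each factor gene with its 95% interval (black) and under the alternative settings (grey), with the dotted line at a 2-fold fall. All values of FOXA1 and HOXB13 lie beyond the line and all values of GATA2 inside it, while TRPS1 crosses it and GRHL2 ranges from -2.91 to -1.26.

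The vehicle libraries held 19623553 and 20690819 counted fragments and the CPI-455 libraries 9522920 and 5401588, so low genes were measured less precisely with CPI-455. The share of counts on the noncoding RNA MALAT1 was 0.0884 to 0.114% with vehicle and 4.95 to 6.49% with CPI-455, and that on mitochondrially encoded genes was 1.91 to 2.43% and 0.967 to 1.24%. Depth and both shares moved with the treatment, and their part in the results was not tested beyond refits. Without these genes in the normalization the log2 fold changes of FOXA1 and HOXB13 were -2.69 and -2.01, and with every library thinned to the depth of the shallowest they were -2.74 and -1.76. On the log2 scale the replicates correlated across genes at 0.993 (vehicle) and 0.946 (CPI-455), although genes are not independent replicates.

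Levels of different genes were compared per length, as FPKM, the CPM divided by the kilobases of exon. In both vehicle libraries the order was FOXA1 (13.6 and 13.7), HOXB13 (11.3 and 10.3), GATA2 (9.15 and 8.72), TRPS1 (5.09 and 5.87) and GRHL2 (2.04 and 2.34), and no neighbours in it overlapped. With CPI-455 GATA2 came first, at 7.27 and 6.17 FPKM, and GRHL2 last, at 0.944 and 0.294. Between them FOXA1 (2.48 and 1.64), TRPS1 (2.45 and 2.22) and HOXB13 (2.43 and 3.02) overlapped, and their order differed between the replicates. FOXA1 stood above 79.2 and 79.3% of tested genes in the vehicle libraries but above 38.9 and 31.5% in the CPI-455 libraries. The position of GATA2 moved less, from 69.8 and 68.7% to 65.0 and 61.4%.

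The ratio of a pair of genes within a library does not depend on how libraries are scaled. It can still depend on exon length and G and C content, and that trend was not removed from the ratios. With the trend removed from the fit, the log2 fold changes of TRPS1 and GATA2 were -0.72 and -0.48, closer together than the -1.22 and -0.40 of the main fit. Those of FOXA1, HOXB13 and GRHL2 were then -2.58, -2.12 and -1.37. FOXA1 was 1.49 and 1.58 times GATA2 with vehicle, and 0.341 and 0.266 times with CPI-455, a change in the log2 ratio of -2.35. HOXB13 went from 1.23 and 1.18 times GATA2 to 0.334 and 0.49 times, a change of -1.58. The makeup of the set therefore turned from FOXA1 above GATA2 to GATA2 above FOXA1 in each library of its group. The ratio of HOXB13 to GRHL2 overlapped between the groups, at 5.53, 4.41, 2.57 and 10.3. For 9 of the 10 pairs the ratios of the groups did not overlap. In an exact two-sided permutation test over the 4 libraries each of these 9 had an adjusted p of 0.37 (Benjamini-Hochberg over the 10 pairs), the smallest that 2 libraries against 2 allowed here, so the test could not reach 0.05.

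**Figure D3:**
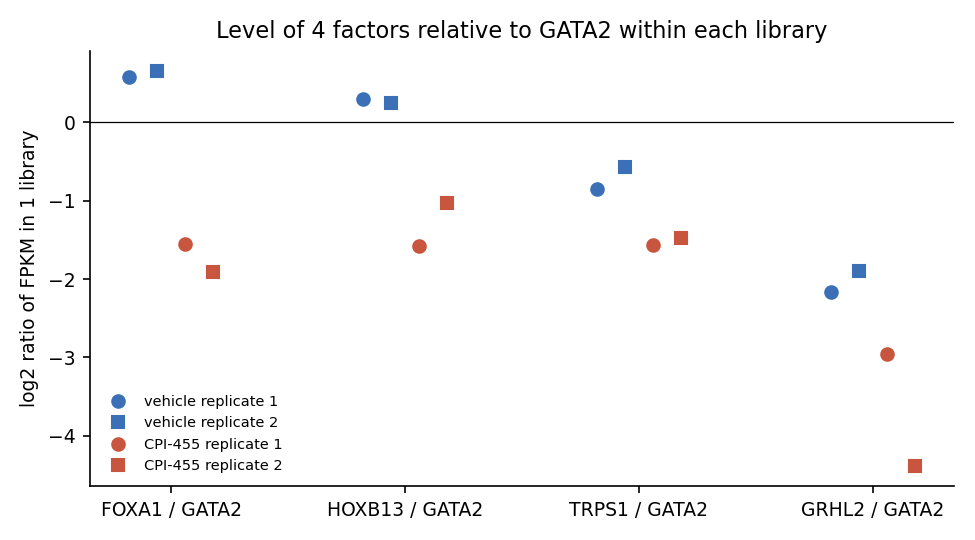
Log2 ratio of the FPKM of 4 factor genes to that of GATA2 within each vehicle (blue) and CPI-455 (red) library, circles for replicate 1 and squares for replicate 2. All 4 ratios are lower in both CPI-455 libraries, and FOXA1 and HOXB13 pass from above GATA2 to below it. The length and G and C trend was not removed from these ratios.

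HOXB13 lies at one end of the HOXB cluster, homeobox genes that pattern the trunk, and several genes of the cluster rose while HOXB13 fell. Of 11 listed genes of the cluster and next to HOXB13, 10 were tested, 5 were called higher and 0 lower, and the median log2 fold change was 1.1, or 0.58 with the length and G and C trend removed. HOXB6 rose from 45.2 and 40.9 CPM to 130.0 and 119.0 (log2 fold change 1.53, FDR = 9.281e-06). HOXB4 and HOXB5 rose with log2 fold changes of 1.5 and 1.45 and HOXB2 with 1.3. HOXB9, the most abundant of them, starts 102.8 kb from HOXB13 and was not called, at 312.0 and 326.0 CPM under vehicle and 276.0 and 284.0 under CPI-455 (log2 fold change -0.19, FDR = 0.148). HOXB7 had a log2 fold change of 0.02, whose sign changes with the scaling, and HOXB3 and HOXB8 had 0.90 and 0.50 and were not called. Counts in the cluster are less certain than those of HOXB13, because HOXB6 shares 32.9% of its exonic bases, HOXB4 17.1% and HOXB3 13.2% with other annotated genes, antisense ones among them, and fragments on several genes were not counted.

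PRAC1 and PRAC2, small genes next to HOXB13, were measured at low counts. PRAC1 had 39 and 51 counts in the vehicle libraries, 51 and 33 in the shallower CPI-455 libraries, and was called higher (log2 fold change 1.54, FDR = 0.00794). With the length and G and C trend removed its log2 fold change was -0.20, so its direction depends on the processing. PRAC2 had 33, 25, 11 and 3 counts and was not called, and an antisense noncoding gene on the other side of HOXB13 (ENSG00000242407) had 10, 9, 0 and 0 and was not tested. The ratio of HOXB13 to HOXB6 per length fell from 0.65 and 0.656 to 0.0486 and 0.0663, and that of HOXB13 to HOXA13, a paralog in another cluster, from 2.15 and 2.19 to 0.42 and 0.54.

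**Figure D4:**
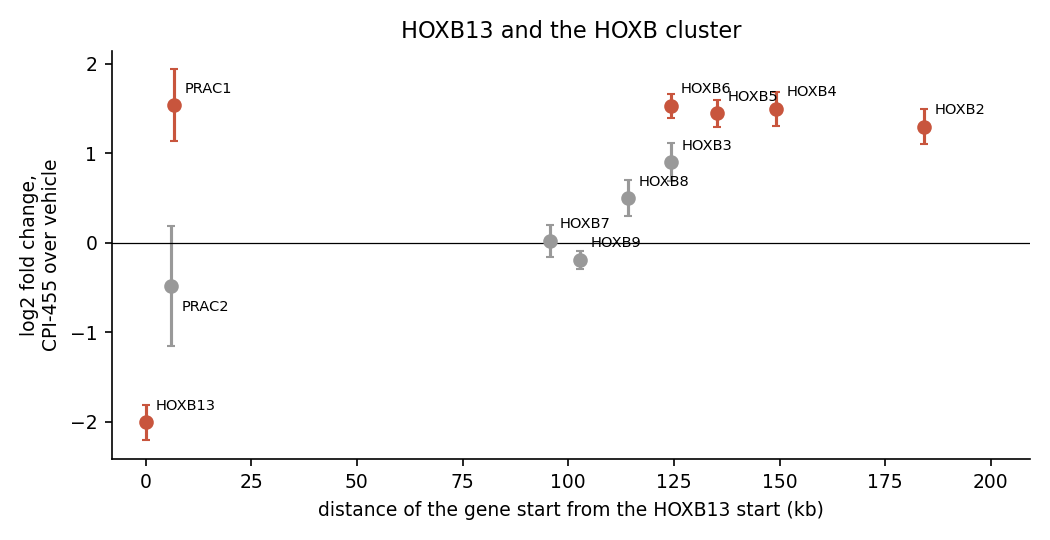
Log2 fold change, CPI-455 over vehicle, with its standard error, of HOXB13, PRAC1, PRAC2 and 8 HOXB genes against the distance of the annotated gene start from that of HOXB13 in kb. Called genes are red and the others grey, and HOXB13 at -2.01 is the only called gene below 0, with HOXB2, HOXB4, HOXB5 and HOXB6 between 1.3 and 1.53.

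Genes that overlap the factors were read beside them, since the counting did not use strand. TTC6 shares 16 exonic bases with FOXA1 on the opposite strand and had 86, 86, 26 and 22 counts, with a log2 fold change of -0.17 (FDR = 0.73). FOXA1 was 28.1 and 29.2 times TTC6 per length with vehicle and 7.11 and 3.15 times with CPI-455. GATA2-AS1, an antisense transcript that overlaps the GATA2 body but no exonic base, had 368, 381, 122 and 49 counts in the same order of libraries. Its log2 fold change of -0.55 (FDR = 0.0651) was close to that of GATA2, and the ratio of GATA2 to it was 1.2, 1.14, 1.21 and 1.45 in the 4 libraries. A noncoding gene that shares 50 exonic bases with GRHL2 (ENSG00000254024) had 7, 2, 0 and 0 counts, and TRPS1-AS1 had 0 in every library.

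Of 12 paralogs of the factors, 10 were tested, of which 1 was called lower and 0 higher (median log2 fold change -0.36). The called gene was GRHL3, a low gene with 19 and 36 vehicle counts and 0 in both CPI-455 libraries, at least 2.73-fold lower when 3 counts are assumed in each of these. GRHL1, the other grainyhead-like paralog, had 8.5, 7.63, 10.4 and 12.3 CPM (log2 fold change 0.48, FDR = 0.127). GRHL2 went from 1.91 and 2.44 times GRHL1 per length to 0.72 and 0.19 times. GATA4 and GATA6, factors of endoderm and heart, had log2 fold changes of -0.76 and -0.36, and GATA3, the luminal factor of breast, had 0.66, none of them called. HOXD13, a limb and hindgut factor, was the most abundant paralog in CPM, at 105.0, 104.0, 84.6 and 76.4 (log2 fold change -0.37, not called).

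Among 22 partners and cofactors of the 5 proteins, 3 were called lower and 2 higher, and their median was -0.31. Over the alternatives 2 to 5 were called lower and 1 to 3 higher, and the median was -0.02 with the length and G and C trend removed. NFIX, of the nuclear factor I family that binds beside FOXA1, fell by 2.11 on the log2 scale (FDR = 5.158e-06), whereas its relatives NFIA, NFIB and NFIC were not called. CEBPB fell by 1.13 (called in 15 of 17 alternatives). MEIS1, a homeobox partner of HOXB13, rose from 9.54 and 11.1 CPM to 34.6 and 29.9 (log2 fold change 1.65, FDR = 7.920e-05), and MEIS3 rose with a log2 fold change of 1.06, close to the 2-fold minimum (0.87 to 1.24, called in 12 of 17 alternatives). TLE1, TLE3, HDAC3, KMT2C, KMT2D and CHD4 are corepressors or chromatin enzymes known to act with these factors. Their log2 fold changes lay between -0.91 and 0.42 and none was called. All but TLE1 had an FDR below 0.05 and missed the call by the 2-fold minimum. The largest changes were those of CHD4 (-0.91, FDR = 8.643e-05) and KMT2D (-0.82, FDR = 2.887e-04).

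Of 13 other transcription factors known in the prostate epithelium, 12 were tested, 6 were called lower and 2 higher, with a median of -1.13. ETV1, which LNCaP is known to express from a rearranged gene, fell by 2.18 on the log2 scale from 31.0 and 27.3 CPM to 4.49 and 9.1, and the epithelial factors EHF, KLF5 and SPDEF fell by 1.82, 1.33 and 1.28. SOX4, a factor of progenitor and mesenchymal states, rose from 169.0 and 155.0 CPM to 465.0 and 506.0 (log2 fold change 1.59, FDR = 3.766e-06). ELF3, named after its values were seen, rose from 1.46 and 2.01 CPM to 9.42 and 18.6, although it is of the same ETS family as EHF and SPDEF.

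Of 13 epithelial genes known as targets of GRHL2, 7 were called lower and 0 higher, with a median of -1.21. CDH1, which encodes E-cadherin, fell from 45.2 and 39.7 CPM to 5.61 and 12.7 (log2 fold change -2.30, FDR = 1.400e-04). ESRP1, an epithelial splicing factor, fell by 2.45, ERBB3 by 1.36, and CLDN7, a tight junction protein, by 1.08 (called in 13 of 17 alternatives). The count of 7 was lower in other settings, at 3 with at least 10 counts required in every library, 3 with glmTreat and 4 without vehicle replicate 1. The junction gene CLDN4 had a log2 fold change of -0.01, whose sign changes with the scaling, and EPCAM had 0.33, neither called.

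Of 14 luminal genes known to be driven by androgen, 9 were called lower and 0 higher, with a median of -1.66. SLC45A3, ABCC4, KLK3 and FKBP5 fell by 2.34, 2.15, 1.65 and 1.53 on the log2 scale. STEAP4 had 47 and 40 vehicle counts and 0 in both CPI-455 libraries, at least 4.35-fold lower on the same assumption of 3 counts in each. KLK2 and KLK4, which lie in the same gene cluster as KLK3, had log2 fold changes of 0.56 (FDR = 0.00833) and 0.46 (FDR = 0.0565) and were not called.

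**Figure D5:**
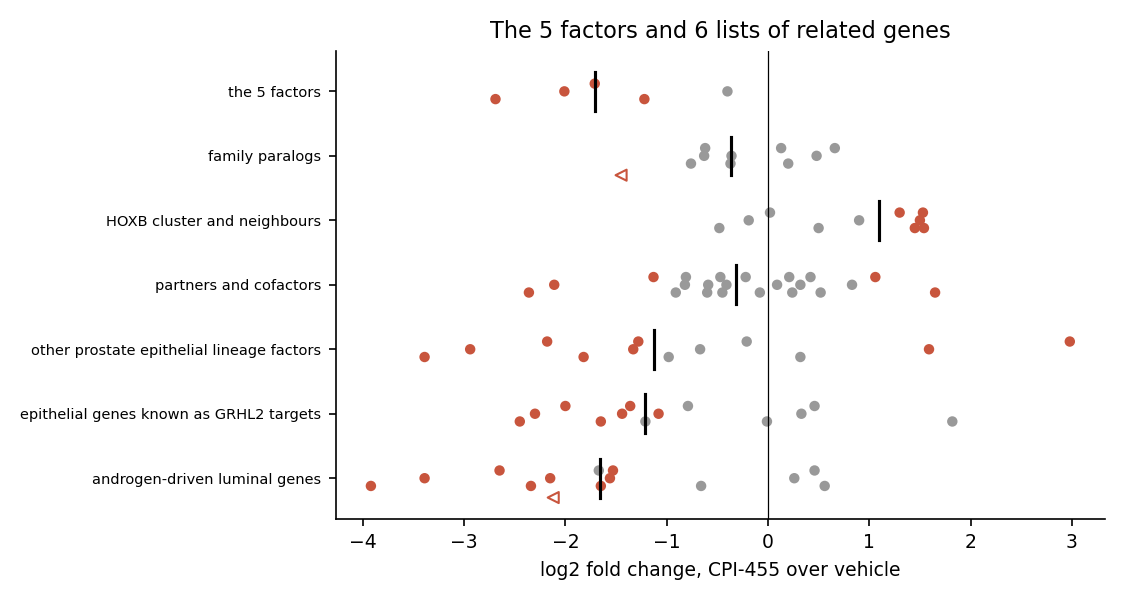
Log2 fold change, CPI-455 over vehicle, of the tested genes among the 5 factors and 6 lists of related genes, with called genes in red, others in grey and the median of each list as a black bar. Open triangles are bounds for GRHL3 and STEAP4, which had 0 counts with CPI-455, and the list medians run from -1.71 for the 5 factors to 1.1 for the HOXB cluster (0.58 with the length and G and C trend removed).

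Markers were read to check the cell type. The 8 luminal markers were all tested, 6 were called lower and 0 higher, and their summed level was 810.0 to 869.0 CPM with vehicle and 283.0 to 337.0 with CPI-455. KRT8, a keratin of luminal cells, fell by 1.07 (called in 12 of 17 alternatives), and KRT18 had a log2 fold change of -0.43 and was not called. Of 4 basal and 4 immune markers 0 passed the filter, with KRT5 and KRT15 at 0 counts in all 4 libraries, and the summed levels of these lists were at most 1.23 and 1.01 CPM. The 5 stromal markers summed to 16.3 to 21.5 CPM over all libraries, with LUM at 0, and 2 of them were tested. COL1A1, at a log2 fold change of 1.0, was called higher but in only 8 of 17 alternative settings. ACTA2 moved the other way, from 11.8 and 17.4 CPM to 6.06 and 10.5 (log2 fold change -0.87). It missed the call by the 2-fold minimum and was called lower in 4 of 17 alternatives. The 6 neuroendocrine markers summed to 139.0 CPM in each vehicle library and to 78.5 and 85.5 with CPI-455. NCAM1 alone held 113.0 and 110.0 CPM of this with vehicle and 48.8 and 40.2 with CPI-455. CHGA and NCAM1 were called lower, and also in 11 and 15 of the 17 alternatives. INSM1, SYP and CHGB had log2 fold changes of 0.75 (FDR = 0.0291), 0.69 and 0.16 and were not called. The median of the 5 tested neuroendocrine markers was 0.16. The luminal markers, which include KLK3, moved with the factors, and their part in these results was not tested.

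The genes whose pattern over the 4 libraries was most like that of a factor were found by the distance between log2 CPM values centred on each gene's mean, over 11200 genes. They were CTTNBP2NL (distance 0.0406) and VSTM4 (0.0792) for FOXA1, FITM2 (0.0628) and MRPL49 (0.0641) for HOXB13, DDHD1 (0.0254) and CDC42BPB (0.0335) for GATA2, TAP1 (0.127) and EEF1AKMT3 (0.202) for GRHL2, and HUWE1 (0.0153) and CBX5 (0.0265) for TRPS1. A distance within 0.5 was found for 55 genes with GRHL2 and 176 with FOXA1, but for 641 with HOXB13 and 2696 with GATA2. With 4 libraries such a likeness is a description of levels, in which genes with a moderate change have many neighbours.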

How the data were processed

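RNA-seq of 4 LNCaP cultures was used, 2 per group, grouped by the sample labels. The authors trimmed reads with Trim Galore, mapped them to GRCh38 (STAR) and made fragment counts for the genes of Ensembl release 83 (featureCounts v1.5.0-p1), without strand, leaving out fragments with several alignments or genes. The deposited values are raw counts per gene and library. RNA selection is not given in the sources used here. Symbols were matched for 56558 of 60675 genes.

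Counts were tested with edgeR 4.0.16 in R 4.3.3 (TMM, filterByExpr with a minimum of 10 counts, glmQLFit and glmQLFTest, no covariate) on all 17600 genes kept, and FDR is by Benjamini-Hochberg. TMM factors were 1.079 and 1.058 for the vehicle libraries, 0.936 and 0.9359 for the others. The libraries held 5401588 to 20690819 counts. A single count was worth 0.0457 to 0.198 CPM, and 3 counts 0.137 to 0.593 CPM. FPKM is CPM divided by the exonic length in the files. The code of the test was checked on simulated counts with 200 changed genes and the same variability for every gene. The real libraries had far more called genes, so this check does not give the error rate in them. Poisson intervals are at 95%, and intervals and floors cover counting error only. Alternatives were RLE, upper-quartile and total scaling, TMM without mitochondrially encoded genes and MALAT1, no filter, at least 10 counts in every library, DESeq2 1.42.0, a likelihood-ratio test, glmTreat, a replicate block, a length and GC trend (mgcv 1.9.3) removed, both together, thinning, and leaving out each library.

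The factors and the gene lists were chosen with earlier results of these data known. Named are the factors, genes overlapping or within 10 kb of them, the 2 most alike genes for each, and from each list up to 6 called genes at or above a mean log2 CPM of 3, largest change first. Others (GRHL3, STEAP4, ELF3 and genes not called) were named after their values were seen. The labels number replicates 1 and 2 in both groups without saying that numbers mark a shared culture or day, and same-numbered libraries did not deviate together (correlation 0.04). Methods and labels differ in the DMSO concentration. Protein sequences were not used here. The counts and medians of the lists cover all listed genes, of which some are not reported here by name.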

Additional observations from a re-analysis of the deposited data

How the results depend on the processing

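Over 17 alternatives the log2 fold changes of FOXA1 ranged from -3.08 to -2.51 and of HOXB13 from -2.20 to -1.76, both called in all 17, while GATA2 ranged from -0.59 to -0.23 and was called in 0. GRHL2 (-2.91 to -1.26 over 16 alternatives, as it did not pass the minimum of 10 counts in every library) and TRPS1 (-1.41 to -0.72) kept their direction. With glmTreat GRHL2 (-1.71) and TRPS1 (-1.22) were not called, which left 2 of the 5 factors lower, and 2350 genes were called lower and 2455 higher in place of 3756 and 3698. TRPS1 was also not called with the length and GC trend removed, at -0.72, nor with the replicate block and that trend, at -0.72, and the cause was not tested. The replicate block alone gave -2.71 for FOXA1, -2.01 for HOXB13, -0.41 for GATA2, -1.83 for GRHL2 and -1.22 for TRPS1 and changed none of their calls, but nothing except a number pairs the libraries. Of called genes 50.4% were lower, against 41.9% with upper-quartile scaling and 59.4% with library totals. Leaving out each library moved the change of the FOXA1 to GATA2 log2 ratio between -2.53 and -2.17, and such fits assume that a lone library varies like the other group. GRHL2 had 9 counts in the shallowest library, which limits its precision there.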
